A study of Mus musculus with 8 samples.

Results

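Mki67, Top2a, Cdc20 and Cenpa are 4 genes whose transcripts accumulate in dividing cells and that are widely used to mark proliferation. Chosen by symbol, all 4 were found among the 1329 genes of the table analysed, which came from RNA of the ascending aorta, labelled as vascular cells. The mice were Fbn1 mgR/mgR, a Marfan syndrome model that under-expresses Fbn1, the gene for the microfibril protein fibrillin-1. All 8 libraries carry that genotype, so none comes from a healthy aorta. In 4 of them the mice had received DT-061, a small molecule that activates protein phosphatase 2A, by mouth for 4 weeks, 2 times a day at 5 mg/kg, starting at an age of 5 weeks. The other 4 came from mice given the vehicle, a mixture of N,N-dimethylacetamide, Kolliphor HS-15 and water, on the same schedule. Poly-A RNA was sequenced, and levels were deposited as FPKM, which scale fragments to the length of the gene and the total of the library. No label says that each library came from a separate mouse, so the spread between libraries may be partly technical.

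A cell that enters the cycle first copies its DNA, then condenses the chromosomes, attaches them to the spindle at the centromeres, separates the sister chromatids and divides. Genes for the later steps are switched on together in G2 and mitosis. In quiescent cells many of them are repressed by the DREAM complex, which binds a promoter element called the cell cycle genes homology region (CHR), and the CCAAT-binding factor NF-Y takes part in their activation. Smooth muscle cells of the adult aortic wall divide rarely, and vessel injury and inflammation are settings in which wall cells and infiltrating leukocytes can proliferate. In this bulk tissue, fewer dividing cells and less of these transcripts per cell cannot be told apart.

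The promoters of the 4 genes are shown so that the elements described above for genes of G2 and mitosis can be read in them. Any part of these elements in the changes of the 4 genes was not tested. RefSeq promoter windows on GRCm38.p6 were matched for all 4, and 250 bases upstream of the start site are printed 5′ to 3′ on the strand of the gene. Capitals mark the CHR letters TTTGAA or TTCGAA and the CCAAT box, on either strand, so that TTCAAA and ATTGG are reverse-strand matches. The windows are chr7:135716380-135716629 (minus strand) for Mki67, chr11:99024190-99024439 (minus) for Top2a, chr4:118437344-118437593 (minus) for Cdc20 and chr5:30666636-30666885 (plus) for Cenpa. For Cenpa, the single CHR match lay just downstream of the RefSeq start site, and 30 bases around it (chr5:30666890-30666919) are added. The GENCODE M21 annotation places the 5′ end of Cenpa at 30666777 and that of Cdc20 at 118437352, upstream of the RefSeq starts. The last bases printed for Cenpa and Cdc20 therefore lie inside the genes as GENCODE places them.
Mki67: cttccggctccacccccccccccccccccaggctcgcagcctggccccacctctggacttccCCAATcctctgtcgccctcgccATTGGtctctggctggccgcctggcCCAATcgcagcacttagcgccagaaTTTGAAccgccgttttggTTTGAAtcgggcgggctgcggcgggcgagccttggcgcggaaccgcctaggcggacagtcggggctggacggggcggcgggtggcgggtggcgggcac
Top2a: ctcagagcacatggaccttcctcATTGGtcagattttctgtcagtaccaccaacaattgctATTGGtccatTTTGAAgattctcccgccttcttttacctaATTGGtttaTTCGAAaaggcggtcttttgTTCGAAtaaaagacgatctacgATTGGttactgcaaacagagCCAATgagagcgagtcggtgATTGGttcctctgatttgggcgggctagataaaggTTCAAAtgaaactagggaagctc
Cdc20: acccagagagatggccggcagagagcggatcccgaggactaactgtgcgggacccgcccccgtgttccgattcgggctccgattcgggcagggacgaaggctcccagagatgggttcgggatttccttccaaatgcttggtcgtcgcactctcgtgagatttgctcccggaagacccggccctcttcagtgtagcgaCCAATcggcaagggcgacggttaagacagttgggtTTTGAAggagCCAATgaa
Cenpa: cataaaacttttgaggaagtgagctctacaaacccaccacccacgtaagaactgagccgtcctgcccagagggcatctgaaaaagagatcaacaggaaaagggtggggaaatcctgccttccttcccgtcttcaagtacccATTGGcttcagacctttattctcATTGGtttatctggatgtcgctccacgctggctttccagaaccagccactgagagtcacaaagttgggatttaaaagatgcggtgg
Cenpa, around the CHR match: ggcgggtgatttTTTGAActgctggcgacc

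Each of the 4 windows of 250 bases before to 50 after the start held a CHR and a CCAAT box. Mki67 had 2 CHR matches, beginning at positions -116 and -98 counted from the start site, and 3 CCAAT boxes. In Top2a there were 4 CHR matches, at -179, -140, -120 and -23, among 6 CCAAT boxes. Cdc20 held 1 CHR match at -18 between its 2 CCAAT boxes at -53 and -8. Cenpa held 1 at position 17 and 2 CCAAT boxes upstream of the RefSeq start, at -109 and -86, both inside the gene as GENCODE places it. Of all 32851 mouse windows of this length, 19.2% held a CHR, 37.4% a CCAAT box and 7.52% both. The letters GGCGG, the core of the cell cycle-dependent element (CDE) that can accompany a CHR, were in all 4 windows and in 48.8% of all windows. An E2F core, which was any of the letters TTCCCGC, the letters TTGGCGC, the letters TTCGCGC and the letters TTGCCGC, was in 1 of the 4, Mki67, and in 9.57% of all. No match of one motif overlapped a match of another in these 4 windows. Such matches are descriptions of the letters and not evidence of binding.

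**Figure D1:**
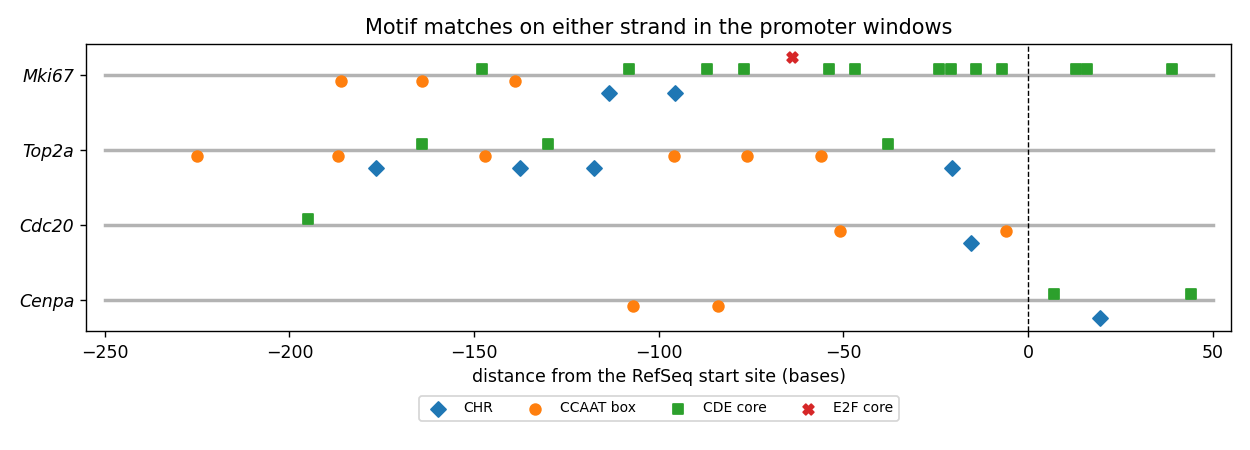
Motif matches in the promoter windows of Mki67, Top2a, Cdc20 and Cenpa, by distance from the RefSeq start site in bases. Diamonds are CHR matches, circles CCAAT boxes, squares CDE cores and the cross an E2F core; every window holds at least 1 CHR and 2 CCAAT boxes, and only that of Cenpa has its CHR downstream of the start.

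All 4 genes were lower in the aortas of DT-061-treated mice, by 2.18-fold (Cenpa) to 2.71-fold (Mki67 and Top2a) on the ratio of mean FPKM. By limma on log2(FPKM + 1), with Benjamini-Hochberg adjustment over all 1329 genes, each passed the threshold of 0.05. The authors had chosen the table as genes significant in this same comparison, so these p-values are not independent evidence. In the table, 65.0% of genes fell by this test, and 30.4% rose. The values of the 4 genes ran from near the middle of this table to its lower part. By mean FPKM, Cenpa ranked 638, Cdc20 743, Top2a 744 and Mki67 919 among 1329 genes.

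Mki67 encodes Ki-67, which coats mitotic chromosomes and keeps them apart (Ensembl ENSMUSG00000031004, GRCm38 chromosome 7, 135689784 to 135716361, minus strand). Its level was 1.26, 2.0, 0.581 and 1.31 FPKM in DT-061 libraries 1 to 4, against 4.78, 1.68, 2.79 and 4.70 FPKM in vehicle libraries 1 to 4. The groups overlapped, because vehicle library 2 lay below DT-061 library 2. Mean levels were 1.29 ± 0.579 FPKM with DT-061 and 3.49 ± 1.51 FPKM with vehicle (SD, n = 4 each). The log2 change was -0.94 ± 0.31 (SE; limma adjusted p = 0.023), with a 95% interval of -1.65 to -0.23. An exact two-sided permutation test of the 8 values gave p = 0.057, where the smallest p that 70 splits allow is 0.029.

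Top2a encodes topoisomerase IIα, which untangles sister DNA before anaphase (ENSMUSG00000020914, chromosome 11, 98992943 to 99024189, minus strand). It had 2.68, 3.38, 1.31 and 1.77 FPKM in DT-061 libraries 1 to 4, against 8.95, 2.50, 4.74 and 8.56 FPKM in vehicle libraries 1 to 4. Vehicle library 2 was lower than DT-061 libraries 1 and 2, and vehicle libraries 1 and 4 were the highest by a wide margin. The means were 2.28 ± 0.928 FPKM with DT-061 and 6.19 ± 3.10 FPKM with vehicle (SD, n = 4 each), and the log2 change was -1.05 ± 0.37 (limma adjusted p = 0.028). Its exact permutation p was 0.086. Of the 4 genes, Top2a had the largest change on this scale and also the largest error.

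Cdc20 encodes the activator of the anaphase-promoting complex, the ubiquitin ligase whose targets must be destroyed for sister chromatids to part (ENSMUSG00000006398, chromosome 4, 118432901 to 118437352, minus strand). DT-061 libraries 1 to 4 held 2.17, 3.32, 1.54 and 2.80 FPKM, against 6.27, 3.52, 4.82 and 9.44 FPKM in vehicle libraries 1 to 4. The groups did not overlap, though DT-061 library 2 and vehicle library 2 were close. With means of 2.46 ± 0.772 FPKM under DT-061 and 6.01 ± 2.55 FPKM under vehicle (SD, n = 4 each), the log2 change was -0.98 ± 0.28 (limma adjusted p = 0.019; exact permutation p = 0.029). The last 53 bases of the gene overlap Elovl1 on the other strand. Among the other members, Mki67 overlaps Gm45240 on the other strand over 674 bases. Top2a overlaps the snoRNA genes Gm26394 (115 bases, other strand) and Gm23451 (122 bases, same strand). No source used here says whether the counting used strand, so reads in stretches shared with a gene on the other strand cannot be assigned.

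Cenpa encodes the histone H3 variant that marks the centromere (ENSMUSG00000029177, chromosome 5, 30666777 to 30674830, plus strand). Its values were 2.88, 4.77, 2.29 and 4.72 FPKM in DT-061 libraries 1 to 4, against 9.45, 5.72, 7.40 and 9.41 FPKM in vehicle libraries 1 to 4. No DT-061 library reached the lowest vehicle library. Cenpa had the highest mean and, with vehicle, the smallest relative spread of the 4, with a coefficient of variation of 22.4% against 42.4% to 50.2% for the others. The means were 3.66 ± 1.27 FPKM with DT-061 and 7.99 ± 1.79 FPKM with vehicle (SD, n = 4 each), giving a log2 change of -0.97 ± 0.24 (limma adjusted p = 0.017; exact permutation p = 0.029). So 2 of the 4 genes were lower with no overlap between groups, as were 48.2% of all 1329 genes, while 30.1% of all genes were higher with no overlap.

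**Figure D2:**
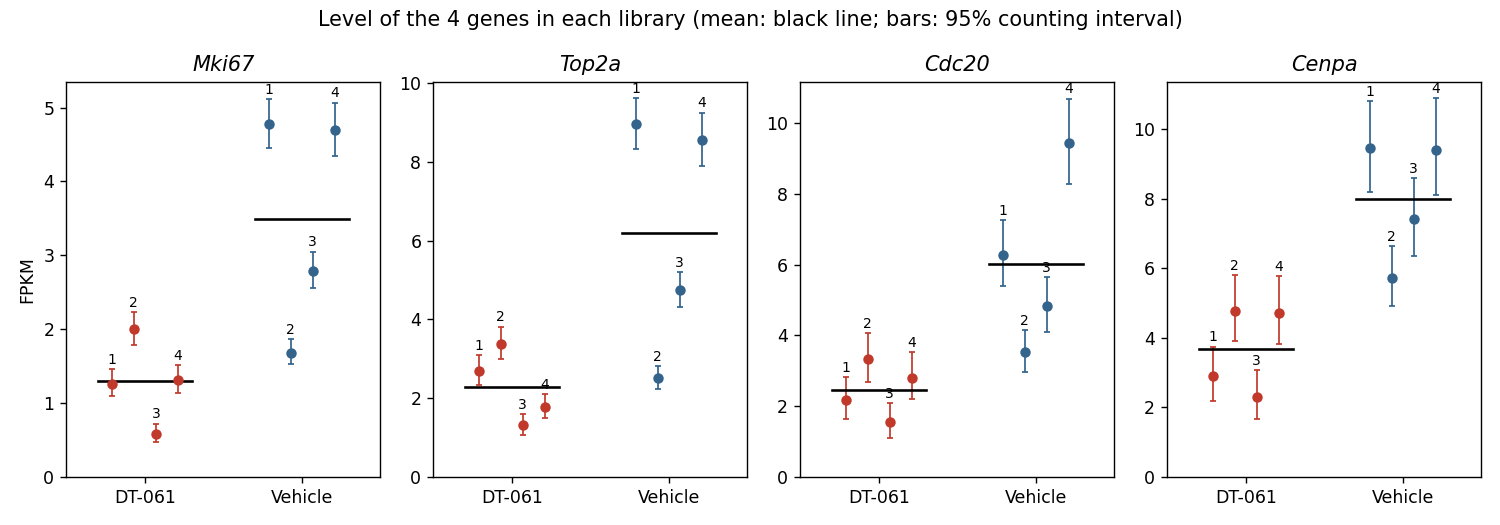
FPKM of Mki67, Top2a, Cdc20 and Cenpa in each library (points, labelled by library number), with group means as black lines and 95% Poisson counting intervals as bars. DT-061 library 3 is the lowest of the 8 libraries for each gene, and vehicle library 2 is the lowest vehicle library for each gene.

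FPKM values of a gene step by the worth of 1 fragment, and these steps returned whole fragments for 1326 of the 1329 genes (99.8%, within 0.05 of a whole number in each library). The totals so recovered were 14400000 to 15600000 fragments in DT-061 libraries and 14100000 to 22200000 in vehicle libraries. Behind the values above stood 85 to 315 fragments of Mki67 in DT-061 libraries and 376 to 779 in vehicle libraries. For Top2a there were 99 to 276 with DT-061 and 290 to 756 with vehicle. Cdc20 had 40 to 93 with DT-061 and 140 to 239 with vehicle, and Cenpa 45 to 101 and 172 to 207. The thinnest count, 40 fragments of Cdc20 in DT-061 library 3, has an exact 95% Poisson interval of 28.6 to 54.5, which covers counting error only. In Top2a, the intervals of vehicle library 2 (258 to 325 fragments) and vehicle library 1 (703 to 812) do not overlap. The gene lengths that gave whole fragments were 5221 bases for Top2a and 1793 for Cdc20, which are the lengths of the GENCODE M21 transcripts Top2a-201 and Cdc20-201. For Mki67 the length was 10075 bases, and for Cenpa the smallest that fitted was 1354, so its fragments could be a multiple of those given. The smallest length that fitted was taken for every gene, so recovered fragments of other genes could be multiples too.

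The proportions of the 4 genes to each other had overlapping ranges in both groups. Within a library, the ratio of Mki67 to Top2a in FPKM was 0.445 to 0.739 with DT-061 and 0.534 to 0.672 with vehicle. Mki67 over Cenpa was 0.254 to 0.439 with DT-061 and 0.294 to 0.506 with vehicle, the pair with the widest difference in mean log2 ratio, at -0.28. None of the 6 pairs differed between the groups beyond the spread of the libraries (exact two-sided permutation p of 0.31 to 0.80, adjusted p = 0.80 for each). With 4 libraries a group, this does not show that the proportions are equal. The order of the libraries was also shared. DT-061 library 3 was the lowest and DT-061 library 2 the highest of the treated libraries for all 4 genes. Among vehicle libraries, number 2 was the lowest for all 4, and number 1 or 4 the highest. With group means removed, the correlation of log2(FPKM + 1) over the 8 libraries was 0.97 for Mki67 and Top2a, 0.92 for Mki67 and Cdc20, and 0.72 for Top2a and Cenpa, the lowest of the 6 pairs. These coefficients describe 8 libraries in which all genes share the same RNA.

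Other genes of the cell cycle were lower as well. Of 226 genes in 9 lists of replication, cell cycle control and mitosis, the 4 included, 38 were in the table, and the others are not analysed here. By limma all 38 fell and none rose, at adjusted or unadjusted p, in a table of which 65.0% fell and which was chosen as significant genes. By limma voom on the recovered fragments 35 fell and none rose. The counts rested on the scaling: with libraries rescaled to equal medians 1 of the 38 fell, 36 being lower and 2 higher, and with quantile normalization 0 fell, adjusted or unadjusted, 9 being lower and 29 higher. In 27 of the 38, and in 25 of the 34 beside the 4, the groups were apart with no overlap, as in 48.2% of all 1329 genes. The median log2 change was -0.97 for the 4 genes, -0.67 for the other 34 and -0.58 over the whole table. On the ratio of mean FPKM, which low values do not compress, the medians were -1.36, -1.42 and -1.07 in log2. The fold of the other 34 ran from 1.75-fold lower for Hmgb2 to 3.83-fold lower for Cdca2, with a median of 2.67-fold, and 12 of them had a mean FPKM under 1. The table held 14 of 35 listed genes of spindle motors and cytokinesis, 7 of 38 of the centromere and kinetochore and 1 of 52 of DNA replication and nucleotide supply. Over all 226 listed genes the share was 16.8%. Listed genes outside the table were not assessed, so these counts do not show which steps of the cycle changed. Without DT-061 library 3, 22 of the 38 fell, and without DT-061 library 4, 25 did, and all 38 were lower in both of these fits.

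**Figure D3:**
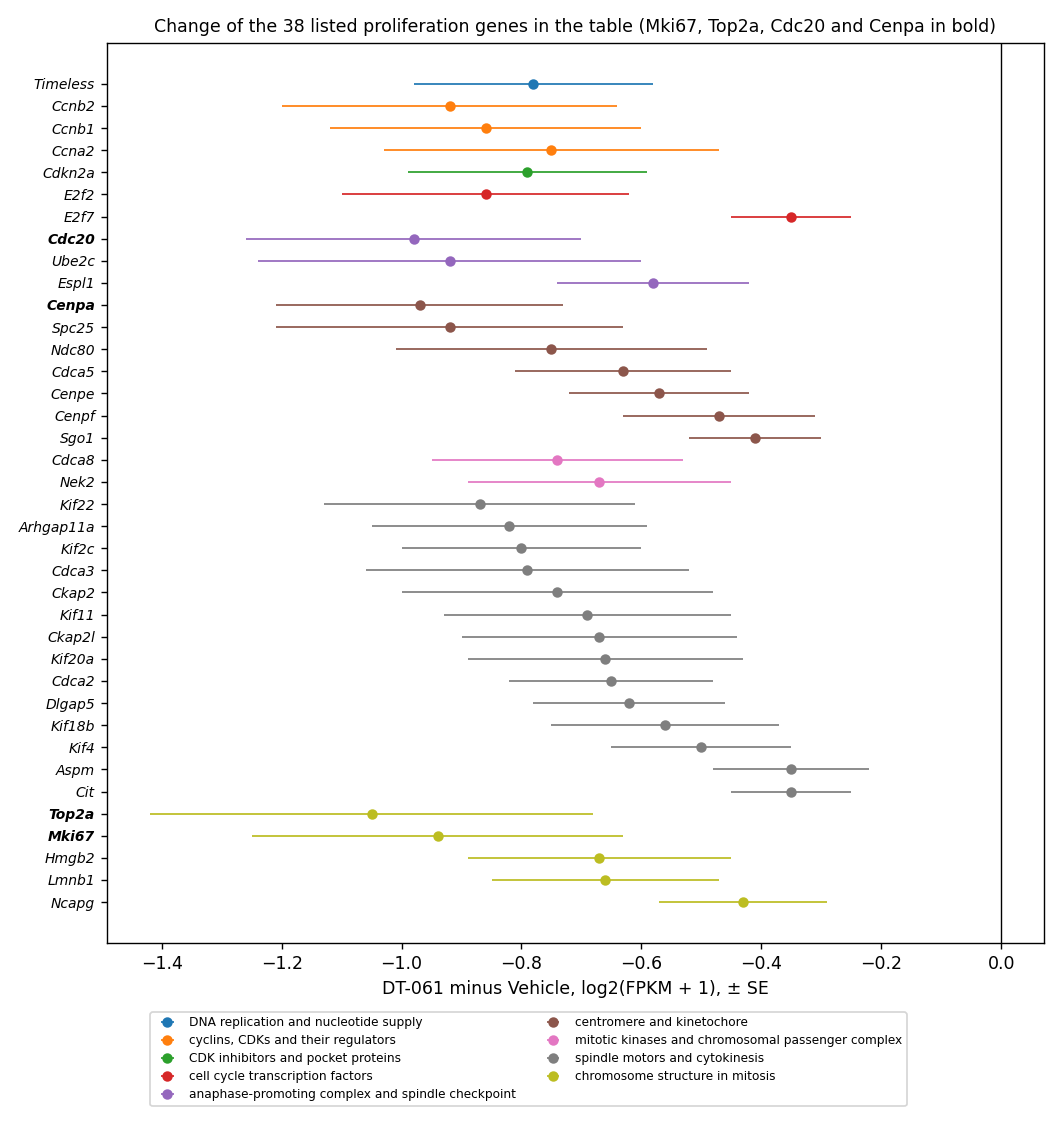
Change of the 38 listed cell cycle genes in the table, DT-061 minus vehicle, on the log2(FPKM + 1) scale with SE, grouped by list in colour. All 38 lie below 0, from -0.35 to -1.05. On this scale, which compresses changes of low genes, Top2a, Cdc20, Cenpa and Mki67 (bold) are the 4 furthest from 0. In fold they are not: they were 2.18-fold to 2.71-fold lower. The other 34 had a median of 2.67-fold and reached 3.83-fold (Cdca2).

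Of 20 listed cyclins, CDKs and their regulators, 3 were in the table, all of them cyclins, and all 3 fell. Of the whole table, chosen as significant genes, 65.0% fell. Ccnb2, a cyclin B, was at 1.49, 2.12, 1.21 and 1.81 FPKM in DT-061 libraries 1 to 4, against 4.57, 2.34, 3.12 and 7.08 FPKM in vehicle libraries 1 to 4, and was 2.58-fold lower. As for the 4 genes above, library 2 was the lowest with vehicle and library 3 the lowest with DT-061. Ccnb1, the other mitotic cyclin B, had 0.811, 1.16, 0.443 and 0.955 FPKM in DT-061 libraries 1 to 4, against 2.51, 1.47, 1.68 and 4.13 FPKM in vehicle libraries 1 to 4. It was 2.90-fold lower without overlap, with a log2 change of -0.86 ± 0.26 (SE, n = 4 per group; limma adjusted p = 0.021). Ccna2, the cyclin of S phase and G2, had 1.48, 1.75, 1.12 and 1.17 FPKM in DT-061 libraries 1 to 4, against 3.73, 1.52, 2.45 and 5.02 FPKM in vehicle libraries 1 to 4, so the groups overlapped. Its log2 change was -0.75 ± 0.28 (limma adjusted p = 0.032), and 6 of the 8 fits that left out 1 library, all but those that left out library 2 of either group, did not pass (-0.96 to -0.55 over all 8).

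The 2 other genes in the table from the list of the anaphase-promoting complex and spindle checkpoint fell too, as did 65.0% of the whole table. Ube2c, the ubiquitin-conjugating enzyme that works with this ligase, had 1.53, 1.90, 1.16 and 1.02 FPKM in DT-061 libraries 1 to 4, against 4.91, 1.62, 2.72 and 6.11 FPKM in vehicle libraries 1 to 4. Here vehicle library 2 lay inside the DT-061 range, and the call was lost on leaving out DT-061 library 1, 3 or 4, or the first vehicle library (-1.18 to -0.70 over the fits without 1 library). Espl1, separase, the protease that cuts the cohesin ring at anaphase, was at 0.746, 1.10, 0.894 and 0.687 FPKM in DT-061 libraries 1 to 4, against 2.32, 1.41, 1.67 and 1.72 FPKM in vehicle libraries 1 to 4. Its groups did not overlap, its log2 change being -0.58 ± 0.16 by limma (adjusted p = 0.018).

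Beside Cenpa, 6 genes of the centromere, kinetochore and cohesion were in the table, and each fell, in a table of which 65.0% fell. Spc25 and Ndc80 encode subunits of the Ndc80 complex, which grips spindle microtubules. Spc25 had 1.23, 1.06, 0.295 and 0.545 FPKM in DT-061 libraries 1 to 4, against 2.08, 1.25, 2.30 and 4.21 FPKM in vehicle libraries 1 to 4, and was 3.14-fold lower. Ndc80 had 0.759, 0.785, 0.282 and 0.432 FPKM in DT-061 libraries 1 to 4, against 2.22, 0.798, 1.20 and 2.67 FPKM in vehicle libraries 1 to 4, so that its groups were separated by a narrow gap at vehicle library 2. Sgo1, shugoshin, which guards centromeric cohesion, was 2.85-fold lower, and the kinetochore motor gene Cenpe 2.77-fold lower, both at low levels. Of the mitotic kinase and passenger genes, Cdca8, the passenger subunit borealin, was 2.58-fold lower and the centrosomal kinase gene Nek2 2.56-fold lower. Without DT-061 library 3, Spc25 (-0.78), Ndc80 and Nek2 did not pass. Ndc80 also failed to pass on leaving out DT-061 library 4 or the first vehicle library (-0.93 to -0.59 over the fits without 1 library), and Nek2 without DT-061 library 4 (-0.81 to -0.49).

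All 14 genes of spindle motors and cytokinesis in the table fell, with a median log2 change of -0.66. In the whole table, chosen as significant genes, 65.0% fell and the median log2 change was -0.58. Kif22, a kinesin that binds chromosome arms, stood at 1.49, 1.43, 0.735 and 1.51 FPKM in DT-061 libraries 1 to 4, against 4.43, 1.97, 2.33 and 4.53 FPKM in vehicle libraries 1 to 4. Ckap2, a spindle microtubule protein, was at 1.47, 1.72, 1.01 and 1.28 FPKM in DT-061 libraries 1 to 4, against 2.52, 1.73, 2.99 and 5.17 FPKM in vehicle libraries 1 to 4, the groups all but touching at library 2 of each. Cdca3, a cell division cycle gene, had 1.27, 1.75, 1.19 and 1.17 FPKM in DT-061 libraries 1 to 4, against 3.16, 1.66, 2.61 and 5.56 FPKM in vehicle libraries 1 to 4, and its groups overlapped at vehicle library 2. The kinesin genes Kif11 and Kif2c, which build and trim the spindle, were 2.60-fold and 3.29-fold lower. The DNA-bending protein gene Hmgb2 and the lamin B1 gene Lmnb1 fell least in fold of all 38. Hmgb2 had 6.29, 6.18, 5.32 and 4.37 FPKM in DT-061 libraries 1 to 4, against 14.8, 7.31, 8.33 and 8.34 FPKM in vehicle libraries 1 to 4. Lmnb1 had 4.46, 4.32, 3.66 and 3.42 FPKM in DT-061 libraries 1 to 4, against 9.71, 5.13, 6.24 and 6.88 FPKM in vehicle libraries 1 to 4. In both, vehicle library 1 was the highest and the groups did not overlap, but with the median rescaling both changes turned to slightly higher (0.08 and 0.05), without passing. Leaving out 1 library ended some of these calls. Ckap2 did not pass on leaving out DT-061 library 1, 3 or 4, or the third vehicle library (-0.91 to -0.52 over the 8 fits), Cdca3 on leaving out DT-061 library 1, 3 or 4 (-0.99 to -0.55), and Hmgb2 without DT-061 library 4 (-0.78 to -0.47). Kif11 failed when any of DT-061 libraries 1, 3 and 4 and vehicle libraries 1 and 3 was left out (-0.91 to -0.57), while Kif22, Kif2c and Lmnb1 passed in all 8 fits.

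The few listed regulators in the table did not all promote division. Cdkn2a encodes inhibitors that hold cells out of the cycle, and it was 2.77-fold lower, with 0.734 ± 0.217 FPKM under DT-061 and 2.03 ± 0.620 FPKM under vehicle (SD, n = 4 each; limma adjusted p = 0.017). E2f2, an activating E2F factor, was 3.69-fold lower. E2f7, an atypical E2F that represses, was 2.36-fold lower at a mean of 0.425 FPKM. Timeless, which protects replication forks, was the 1 gene of the replication list and was 2.24-fold lower, without overlap.

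RefSeq promoter windows were found for 29 of the 34 other genes, 31 windows in all. Of these, 71.0% held a CHR, 80.6% a CCAAT box and 61.3% both. Over all mouse windows the shares were 19.2%, 37.4% and 7.52%. The CDE core was in 90.3% of them and an E2F core in 22.6%. No test was run on these shares.

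Within the groups, the genes whose values followed the 4 most closely were mostly mitotic. The measure was Pearson's r, over the 8 libraries, between a gene and the mean of the 4, both as log2(FPKM + 1) with the group mean removed, among 1097 genes that averaged 1 FPKM or more. Of the 10 highest, 7 were on the cell cycle lists: Kif2c (r = 0.978), Kif22 (0.922), Ndc80 (0.922), Ccnb2 (0.920), Kif11 (0.918), Ccnb1 (0.907) and Ccna2 (0.905). The other 3 were Aff3 (0.943), a nuclear protein gene, the ferrireductase gene Steap3 (0.904) and the cell adhesion gene Cadm3 (0.891). Aff3 differs in that it was higher with DT-061, at 3.27, 3.97, 3.06 and 3.54 FPKM in DT-061 libraries 1 to 4, against 2.47, 2.05, 2.29 and 2.65 FPKM in vehicle libraries 1 to 4. Its log2 change was 0.41 ± 0.14 (SE, n = 4 per group; limma adjusted p = 0.024). Steap3 fell by 0.60 ± 0.11 and Cadm3 by 0.72 ± 0.19 on the log2 scale. The 22 other listed cell cycle genes in this comparison had r of 0.37 to 0.98, with a median of 0.82, and all 1097 genes had a median of -0.02.

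Markers of leukocytes also fell with DT-061, in a table chosen as significant genes of which 65.0% fell. Of 13 T and NK cell markers, 8 were in the table and 7 fell. Their summed FPKM was 2.19 to 8.17 in DT-061 libraries and 6.16 to 74.9 in vehicle libraries. For B and plasma cells, 4 of 10 markers were in the table and 4 fell, with sums of 20 to 51.4 FPKM under DT-061 and 88.2 to 2280 FPKM under vehicle. For monocytes and macrophages, 3 of 12 were in the table and 3 fell, summing to 2.97 to 15.4 FPKM with DT-061 and 17.2 to 111 FPKM with vehicle. Of 9 neutrophil and mast cell markers 3 were in the table and fell, and S100a9 was at 0 in DT-061 library 3 and vehicle library 4. Fibroblast markers gave 2 of 10, Lum and Cthrc1, both of which fell, with sums of 74.2 to 130 FPKM with DT-061 and 163 to 312 FPKM with vehicle. The 9 endothelial markers and the 8 of germinal centre and erythroid precursor cells are not analysed here.

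The libraries ranked partly alike in these measures. Vehicle libraries 1, 3 and 2 came in the same order for the mean of the 4 genes (3.02, 2.51 and 2.04 on the log2(FPKM + 1) scale), the T and NK cell sum (74.9, 32.1 and 22.9 FPKM) and the B and plasma cell sum (2280, 1170 and 622 FPKM). The remaining leukocyte lists had library 2 above library 3. In vehicle libraries 1, 2 and 3, the monocyte and macrophage sum was 111, 64.0 and 55.7 FPKM. The neutrophil and mast cell sum was 24.8, 16.4 and 8.75 FPKM. Vehicle library 1 had the highest sum of all 4 leukocyte lists and the highest level of Mki67, Top2a and Cenpa. DT-061 library 3 was the lowest in the 4 genes and in all 4 leukocyte sums, and DT-061 library 2 the highest in the 4 genes and in the T and NK cell sum. Vehicle library 4 ranked differently. It had the highest mean of the 4 genes, 3.13 on the log2(FPKM + 1) scale, against 2.04 to 3.02 in the other vehicle libraries. Its T and NK cell sum of 6.16 FPKM lay inside the DT-061 range, and that sum was 22.9 to 74.9 FPKM in the other vehicle libraries. Its neutrophil and mast cell sum of 1.46 FPKM also lay inside the DT-061 range, 0.569 to 2.46 FPKM. Its B and plasma cell sum (88.2 FPKM) and its monocyte and macrophage sum (17.2 FPKM) were above every DT-061 library. Vehicle library 2 had the lowest vehicle mean of the 4 genes, 2.04, and a T and NK cell sum of 22.9 FPKM. Its mean was below the 2.09 of DT-061 library 2, where the T and NK cell sum was 8.17 FPKM. Within groups, r with the mean of the 4 genes was -0.29 to 0.24 for the 8 T and NK cell markers and 0.03 to 0.12 for the 3 monocyte and macrophage markers. For the B cell gene Ighm it was 0.44, and for the plasma cell genes Igha, Jchain and Sdc1 -0.19, -0.08 and -0.0. For S100a8, S100a9 and Csf3r of the neutrophil and mast cell list it was -0.31, -0.24 and 0.02. The fibroblast markers Lum and Cthrc1 had 0.09 and 0.48. Without vehicle library 4, the log2 changes were -0.80 for Mki67, -0.88 for Top2a, -0.76 for Cdc20 and -0.89 for Cenpa, and by limma only Top2a lost its call (adjusted p = 0.057).

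**Figure D4:**
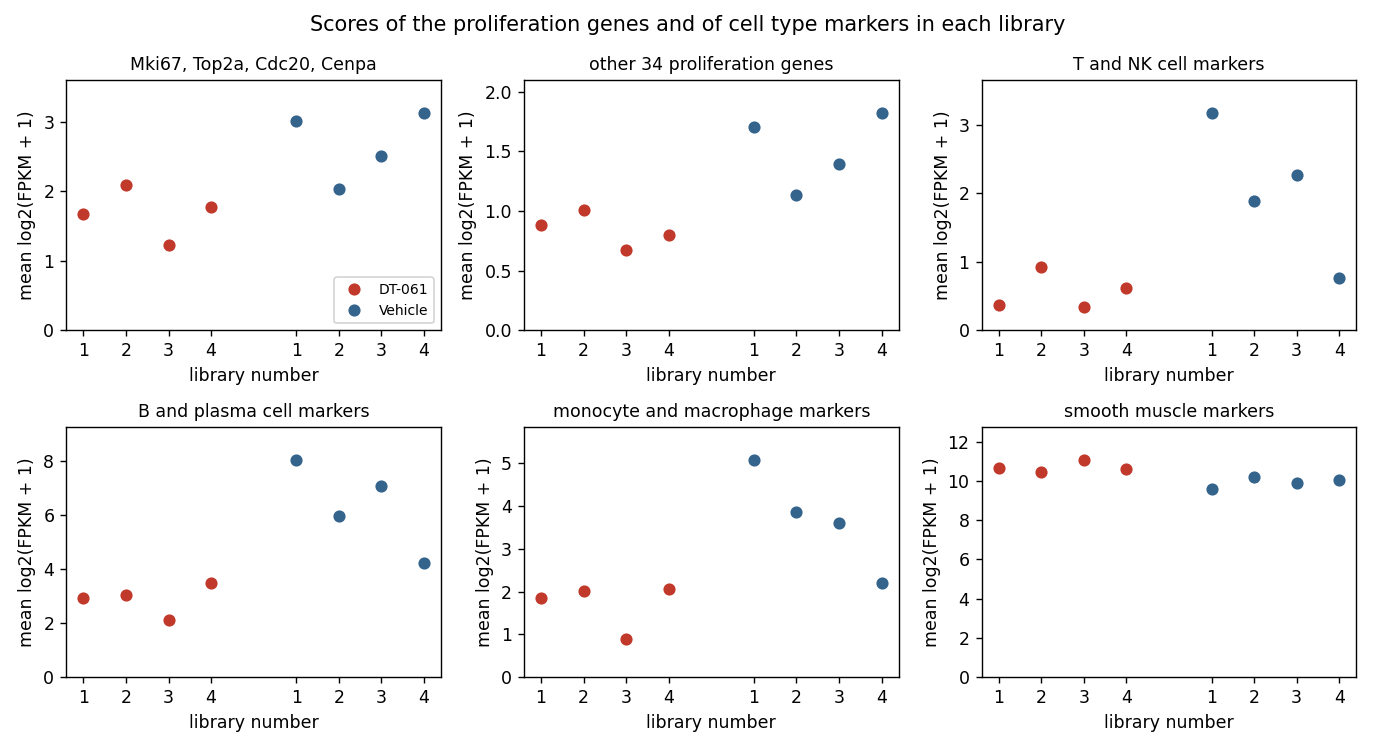
Mean log2(FPKM + 1) of the 4 genes, of the other 34 cell cycle genes and of marker lists in each library, DT-061 in red and vehicle in blue. Vehicle library 4 has the highest values of both cell cycle sets (3.13 and 1.82) and the lowest vehicle values of the T and NK cell, B and plasma cell and monocyte and macrophage markers (0.76, 4.23 and 2.21).

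Smooth muscle markers ran the other way. Of 8 listed, 6 were in the table and all 6 rose, in a table chosen as significant genes of which 30.4% rose. Myh11, Acta2, Tagln, Cnn1, Myl9 and Lmod1 summed to 15300 to 23000 FPKM with DT-061 and 8380 to 13300 FPKM with vehicle. DT-061 library 3, lowest in the 4 proliferation genes, had the highest of these sums, at 23000 FPKM. The within-group r with the mean of the 4 genes was -0.80 for Myh11 and -0.59 to -0.74 for the other 5. The part of the smooth muscle markers, and of the leukocyte markers, in the lower values of the 4 genes was not tested.

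Calls on the 4 genes varied with the libraries and the scaling. Cdc20 and Cenpa passed by limma without any single library. Mki67 lost its call without DT-061 library 3 (adjusted p = 0.053) and passed only just without vehicle library 1 (0.05 after rounding), and Top2a when 1 of DT-061 libraries 3 and 4 or vehicle libraries 1 and 4 was left out (0.057 to 0.068). With limma voom on the recovered fragments, the log2 changes were -1.35 ± 0.52 for Mki67, -1.25 ± 0.57 for Top2a, -1.17 ± 0.41 for Cdc20 and -1.11 ± 0.32 for Cenpa, and Top2a did not pass (adjusted p = 0.059). Scaling mattered most. After rescaling the libraries to equal medians, a step that moved changes by a median of 0.69 on the log2 scale, the 4 genes stayed lower, at -0.42, -0.42, -0.34 and -0.27 for Mki67, Top2a, Cdc20 and Cenpa, and none passed. With quantile normalization, which moved changes over the whole table by a median of 0.56, the 4 genes were at -0.04, -0.23, -0.16 and -0.28, and none passed. In those scalings 59.2% and 65.3% of all calls were rises, against 31.9% as deposited. Both assume that the table is balanced between rises and falls, which a table chosen as significant genes need not be.

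**Figure D5:**
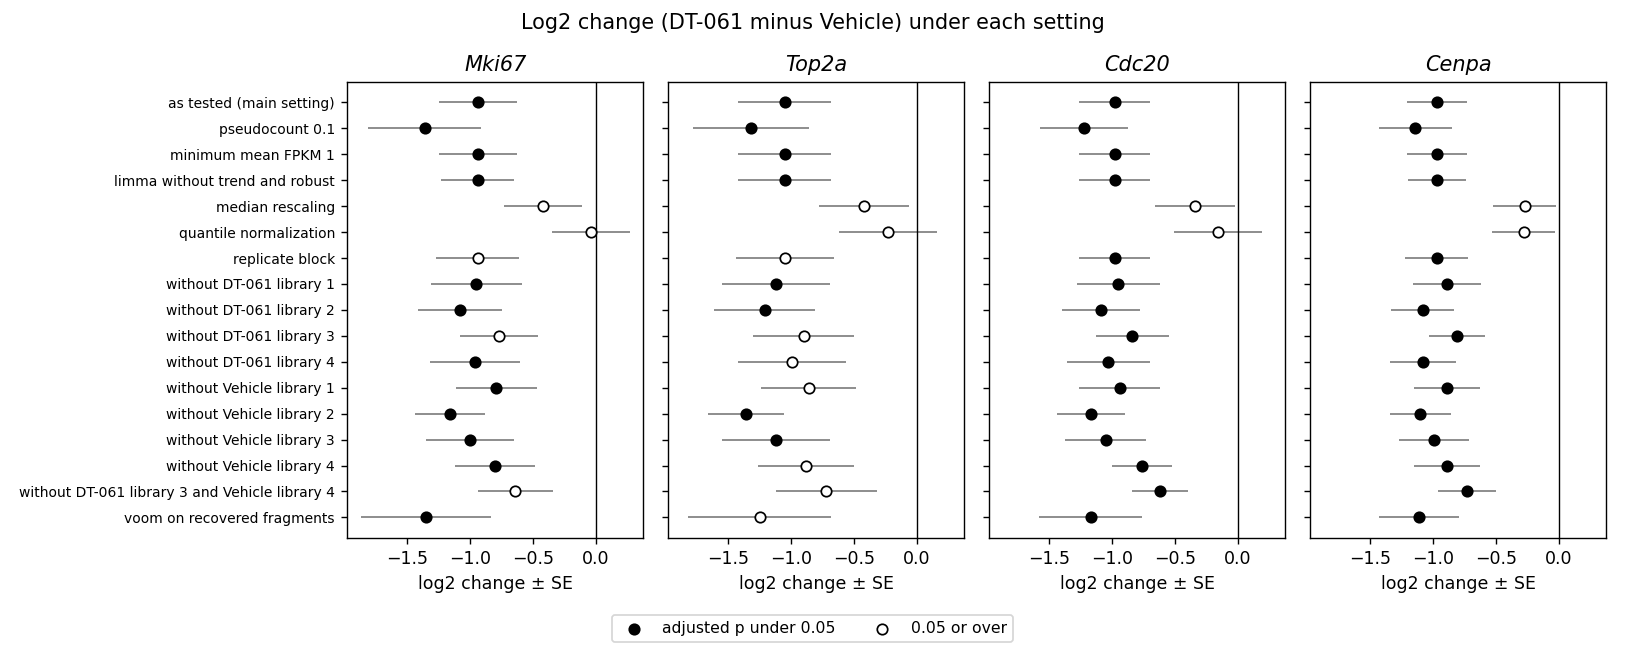
Log2 change (DT-061 minus vehicle) ± SE of Mki67, Top2a, Cdc20 and Cenpa under each setting, filled where the limma adjusted p was under 0.05. All points lie below 0, and those of the median rescaling and of quantile normalization are nearest to it for every gene.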

How the data were processed

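Per the labels' protocols, 8 poly-A libraries of ascending aorta were sequenced as paired-end reads. The submitters' processing notes name the mm10 build, featureCounts 1.5.0-p3, StringTie 1.3.3b and HISAT2 2.0.5, without the step each made. The deposited FPKM values were made by the authors, per the file headers, and the table's name says that its genes were significant between the groups, with no threshold given in the sources used here. Symbols came from the reference gene table (1328 of 1329 genes), positions from GENCODE M21 on GRCm38, and promoters from RefSeq on GRCm38.p6.

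Tests were limma 3.58.1 (trend and robust options, R 4.3.3) on log2(FPKM + 1), treatment as the only term, adjusted over 1329 genes at 0.05, which understates changes of low genes. The procedure was checked on simulated data. Fell and rose refer to genes past that threshold. Fold is the ratio of mean FPKM. Whole fragments were recovered from FPKM by finding, for each library, the total, and for each gene the smallest length, at which every value is whole. The 4 genes and all lists were chosen with earlier results of these data known. Named genes were the 4, all listed cell cycle genes in the table (levels per library for the 3 of highest mean in lists with at least 3), and the 10 of closest within-group pattern. Other choices of which values to print were made after they were seen. The sequences and the marker lists carry no test. The alternatives tried were limma without its trend and robust options, the pseudocount 0.1, genes averaging at least 1 FPKM, 2 scalings, a block on library number and leaving out each library. Added after seeing the data were limma voom on recovered fragments and leaving out DT-061 library 3 and vehicle library 4 together.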

Additional observations from a re-analysis of the deposited data

Results flagged for a closer look

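Among 82 groups of 4 libraries (41 named genes, each with DT-061 and with vehicle), 1 held a library far from the rest, where chance flags about 1 in 20. Kif22 had 0.735 FPKM in DT-061 library 3, against 1.43 to 1.51 FPKM in the other DT-061 libraries. The gap to its neighbour made up 0.904 of the range on the log2(FPKM + 1) scale, above Dixon's 95% critical value for 4 samples.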

How the results depend on the processing

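The directions and calls of the 4 genes were the same with the pseudocount of 0.1, with the minimum mean FPKM of 1 and without the trend and robust options of limma. With the median rescaling none of the 4 passed (log2 changes of -0.42, -0.42, -0.34 and -0.27 for Mki67, Top2a, Cdc20 and Cenpa; limma adjusted p of 0.25 to 0.36). None did with quantile normalization (-0.04, -0.23, -0.16 and -0.28; 0.39 to 0.93). With DT-061 library 3 and vehicle library 4 left out together, Mki67 and Top2a lost their calls (-0.64 and -0.72; 0.084 and 0.12), and Top2a did so with voom on recovered fragments (-1.25). Leaving out 1 library gave -1.16 to -0.77 for Mki67, -1.36 to -0.86 for Top2a, -1.17 to -0.76 for Cdc20 and -1.10 to -0.81 for Cenpa. Library numbers are shared by the groups, but the labels do not pair the mice. Same-numbered libraries did not deviate together (r of 0.18, -0.11, -0.05 and -0.47). With the replicate block, Mki67 (-0.94) and Top2a (-1.05) did not pass (limma adjusted p of 0.052 and 0.055), and Cdc20 and Cenpa did (0.046 each).

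Of the 38 listed cell cycle genes, which all fell as tested, 1 (E2f2) fell with the median rescaling, 0 with quantile normalization (0 at unadjusted p), 18 with the replicate block, 24 when DT-061 library 3 and vehicle library 4 were both left out, and 22 to 38 with 1 library left out, and none rose in any of these (0 at every one). Of all genes, 864 fell and 404 rose as tested. With the median rescaling 299 fell and 434 rose, with quantile normalization 209 and 394, with the replicate block 630 and 204, and with 1 library left out 652 to 881 fell and 254 (without vehicle library 3) to 351 rose. The direction turned with the median rescaling for Hmgb2 (0.08) and Lmnb1 (0.05). With quantile normalization it turned for Timeless 0.17, Ccna2 0.14, Ccnb1 0.04, Cdkn2a 0.12, E2f2 0.01, E2f7 0.27, Espl1 0.32, Cenpe 0.19, Cenpf 0.17, Ndc80 0.10, Sgo1 0.20, Cdca5 0.18, Cdca8 0.18, Nek2 0.20, Kif2c 0.03, Kif4 0.20, Kif11 0.20, Kif18b 0.19, Kif20a 0.22, Kif22 0.03, Cit 0.33, Ckap2 0.15, Ckap2l 0.23, Aspm 0.20, Dlgap5 0.16, Arhgap11a 0.10, Cdca2 0.04, Cdca3 0.11 and Ncapg 0.23 (log2 changes), none past the threshold. The cause was not tested for any of these. For low genes, counting error limits the precision: the other 34 genes had 4 to 647 recovered fragments in a library, at the smallest lengths that fitted.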
